A study of Mus musculus with 16 samples.

Results

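Hippocampal RNA of 4 non-learned helpless (NLH) mice was compared with that of 4 control (Ctrl) mice, which are 8 of the 16 mice sequenced. The mice were taken by their group labels alone. All were male wild type C57BL/6 mice aged 3 months. On day 1 the NLH mice received 180 inescapable foot shocks of 0.4 mA, while the Ctrl mice were only placed in the shuttle box. On day 2 both groups were given 30 trials in which a shock of 0.4 mA could be escaped by crossing to the other chamber. NLH mice are those shocked mice that still escaped, separated from the learned helpless (LH) mice by clustering of their escape failures and latencies, and are also called resilient. Homecage (HC) mice received neither shocks nor trials. HC and LH mice, 4 of each, are given here as values beside the comparison, and also enter the limma fit, which estimates 1 spread per gene over all 16 mice. Both hippocampi of a mouse were pooled 3 h after the test session, and each mouse gave 1 library.

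Learned helplessness is a rodent model of depression-like behavior in which uncontrollable stress impairs later escape. Only part of the stressed animals become helpless, and the others are used to study resilience. The hippocampus, which encodes context and restrains the hormonal stress response, is rich in receptors for stress hormones, and its pyramidal and granule neurons are glutamatergic. Stress and neuronal activity are known to change immediate early genes within minutes to hours, and synaptic proteins, chaperones and the translation machinery over longer times. NLH and Ctrl mice differ both in the inescapable shocks and in the sorting of shocked mice by behavior, and these cannot be told apart here.

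Expression was given as FPKM, a fragment number normalized for transcript length and sequencing depth, of 80137 transcripts, of which 61220 carry 1 of 18287 gene names. Summed FPKM was 124341 to 134285 in the Ctrl mice and 128252 to 147192 in the NLH mice, with NLH2 (143369) and NLH3 (147192) highest. Sequencing depth, estimated from the steps between low FPKM values, was 26890000 to 37980000 fragments in these 8 mice. Hippocampal markers were present in both groups, among them Prox1 of dentate granule cells (mean 9.64 FPKM in Ctrl and 9.46 in NLH) and Fibcd1 of CA1 (8.89 and 8.29). The correlation of log2 FPKM between mice was 0.97 to 0.975 within Ctrl, 0.95 to 0.97 within NLH and 0.948 to 0.969 between the groups. The median SD of log2 FPKM over genes with a mean of at least 1 FPKM was 0.14 in Ctrl, 0.199 in NLH, 0.149 in HC and 0.36 in LH.

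A transcript or gene is referred to as called where the methods' t-test on FPKM gave an unadjusted p under 0.05. By that criterion 3248 of 79239 transcripts (4.10%) were higher and 2459 (3.10%) lower in NLH mice. After the libraries were scaled by median-ratio size factors, 2790 were higher and 3139 lower, so that the more frequent direction turned. All 4 NLH mice lay above all 4 Ctrl mice in 2305 transcripts (2.91%) and below them in 1715 (2.16%). The called transcripts included 3891 mRNAs (2447 higher, 1444 lower), 198 lncRNAs (111 higher, 87 lower, but 91 and 107 after scaling), 16 pseudogene transcripts (5 higher, 11 lower) and 1599 assembled transcripts without a gene name (685 higher, 914 lower). Limma placed 10 transcripts (0.0125%) past a Benjamini-Hochberg adjusted p of 0.05, of which 7 were higher and 3 lower in NLH. Without Ctrl1, 2114 transcripts were called higher and 2328 lower, so that the more frequent direction turned there too. Limma passed 47 transcripts without NLH1 (30 higher, 17 lower), 28 without NLH4 (23 and 5) and 17 without Ctrl4 (6 and 11). Its more frequent direction thus turned without Ctrl4, as it did without Ctrl1 (3 higher, 5 lower), Ctrl2 (4 and 11) or Ctrl3 (5 and 6). With only the 8 NLH and Ctrl mice in the fit, 34 passed (17 and 17).

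Summed per gene name, 1351 of 18043 genes (7.49%) were higher and 375 (2.08%) lower in NLH. Without any overlap between the groups were 871 higher genes (4.83%) and 234 lower ones (1.30%). The excess of higher genes depended on the scale of the libraries. After median-ratio size factors, which were 1.11 and 1.13 in NLH2 and NLH3 and 0.945 to 1.03 in the other 6 mice, 883 genes (4.89%) were higher and 977 (5.41%) lower, so that the higher share of the calls went from 78.3% to 47.5%. In total, 1190 genes were called in the same direction on both scales. The median log2 difference of all genes was 0.06 as deposited and -0.00 after scaling. Without NLH2 and NLH3, an alternative chosen after the values had been seen, 676 genes were called higher and 675 lower. The genes called higher were 845 without Ctrl1 and 2079 without NLH4. Limma placed 1 gene name (0.00547%) past the adjusted threshold, the lncRNA 1700065J18Rik described below, and 1023 at an unadjusted p under 0.05 (811 higher, 212 lower). It passed 2 genes without NLH1, 6 without NLH4, 5 after scaling and 8 with only the 8 mice in the fit. The p-values measure the spread between these mice only, and a difference in bulk tissue cannot be told apart from a difference in the number of cells that make the RNA.

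**Figure D1:**
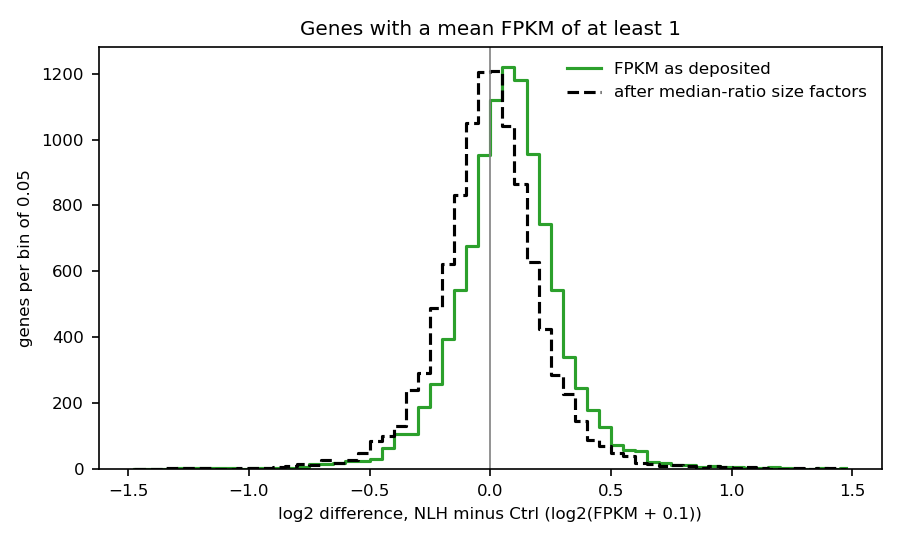
Histogram of log2 differences (NLH minus Ctrl, x axis) over the 10436 genes with a mean of at least 1 FPKM (genes per bin on the y axis), for FPKM as deposited (green line) and after median-ratio size factors (dashed black line). As deposited the distribution is shifted to the right, with a median of 0.08 and a higher NLH mean in 7132 of the genes, and after scaling its median is near 0.

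Genes of the translation machinery held the most called members of the 22 function lists examined. Of 73 cytosolic ribosomal protein genes, 23 were higher and 0 lower in NLH, with a median log2 difference of 0.21, against 0.08 and 10.6% called higher among all genes with a mean of at least 1 FPKM. After scaling, 21 were higher and 4 lower, with a median of 0.13. Rps24, a small-subunit protein, was at 112, 124, 129 and 116 FPKM in the 4 NLH mice and at 76.5, 82.1, 84.2 and 83.3 in the 4 Ctrl mice. Every NLH mouse lay above every Ctrl mouse, with an exact two-sided permutation p of 0.0286. The log2 difference was 0.56 ± 0.13, where the SE is from limma and uses the spread of all 16 mice, LH included. The permutation p was computed on the 8 mice alone. A p of 0.0286 is the smallest that 4 mice against 4 can give, and it is the p of every gene below whose groups are said not to overlap. Rpl31, of the large subunit, was at 61.4, 68.9, 74.6 and 69.7 FPKM in NLH and at 43.3, 48.3, 52.8 and 43.9 in Ctrl, again without overlap (log2 difference 0.54 ± 0.12, limma adjusted p = 0.325). Rpl23a (14.7 to 25.9 FPKM, Ctrl mean to NLH mean), Rps27a (8.92 to 17.8) and Rps13 (11.1 to 18.3) also rose without overlap of the groups. HC and LH means were 85.5 and 99.5 FPKM for Rps24, and 46.9 and 55.7 for Rpl31. Both HC means were nearer to Ctrl than to NLH, and both LH means lay between those of Ctrl and NLH. The number of ribosomal genes called higher was 13 without Ctrl1, 15 without Ctrl3 or without Ctrl4, and 15 (with 3 lower) without NLH2 and NLH3. Many of these genes have processed pseudogenes that can share their reads. They are short as well, with a median transcript length of 705 bases, and the 381 genes of at most 750 bases with a mean of at least 1 FPKM had a median log2 difference of 0.13 (15.5% called higher), against 0.06 to 0.08 in longer bins. The part of transcript length in the ribosomal differences was not tested.

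Tpt1, which encodes an abundant protein whose mRNA is translated under the same growth control as ribosomal protein mRNAs, was at 138, 142, 154 and 120 FPKM in NLH and at 86.3, 92.7, 91.8 and 95.7 in Ctrl. The groups did not overlap, and the log2 difference was 0.59 ± 0.10 (SE; limma adjusted p = 0.0833) and 0.51 after scaling. Naca, which encodes a chaperone of nascent chains at the ribosome, was at 25.9, 29.1, 27.1 and 23.2 FPKM in NLH and at 17.6, 17.9, 17.5 and 18.9 in Ctrl (log2 difference 0.54 ± 0.09, limma adjusted p = 0.0833). For Naca the HC mean (18.1) was close to Ctrl and the LH mean (26.4) close to NLH, and the same held for Tpt1 (91.2 in HC and 128 in LH). Of 43 translation initiation and elongation factors, 8 were higher and 0 lower (8 and 2 after scaling, 14 and 0 without NLH4, 5 and 3 without NLH2 and NLH3), with a median of 0.15. The higher share was 18.6% on both scales, against 10.6% of all genes with a mean of at least 1 FPKM as deposited and 6.79% after scaling. Eif4e, which binds the mRNA cap, was at 25, 25.7, 25.1 and 20.7 FPKM in NLH and at 17.2, 17.4, 18.6 and 16.9 in Ctrl, without overlap. Eif3a, a subunit of the initiation complex eIF3, rose from 7.2 to 9.55 FPKM and Eef1g, a subunit of elongation factor 1, from 23 to 30.7. Eef1b2, of the same elongation factor, rose from 5.43 to 11.5 FPKM, and from 10.7 to 14.6 when assembled transcripts of its locus without a gene name were included.

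The mRNAs of ribosomal proteins carry a terminal oligopyrimidine tract, a run of C and T at the very start that couples their translation to growth signals. Start sites of 53 of the ribosomal genes matched RefSeq (build GRCm38.p6), and 16 of these (30.2%) began with a run of at least 5 pyrimidines, against 4.44% of 32851 start sites in all and 4.23% of those of genes with a mean of at least 1 FPKM. Among the genes called higher, 5 of 13 matched ones had such a run. They are shown with 10 bases before the start and 20 bases from it, with the run in capitals, at chr7:109519185-109519214 (Rpl27a), chr2:39005112-39005141 (Rpl35, minus strand), chr2:180257369-180257398 (Rps21), chr14:24490668-24490697 (Rps24) and chr4:86857348-86857377 (Rps6, minus strand).
Rpl27a: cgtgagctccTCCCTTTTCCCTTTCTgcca
Rpl35: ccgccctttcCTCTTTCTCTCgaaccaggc
Rps21: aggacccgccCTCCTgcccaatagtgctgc
Rps24: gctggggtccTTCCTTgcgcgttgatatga
Rps6: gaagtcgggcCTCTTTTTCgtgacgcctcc
Of these, Rpl27a rose from 23.8 to 30.3 FPKM, Rpl35 from 39.4 to 53.7, Rps21 from 68.7 to 98.4 and Rps6 from 79.7 to 92.3. A run of letters describes the start site and does not show how the RNA was regulated.

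**Figure D2:**
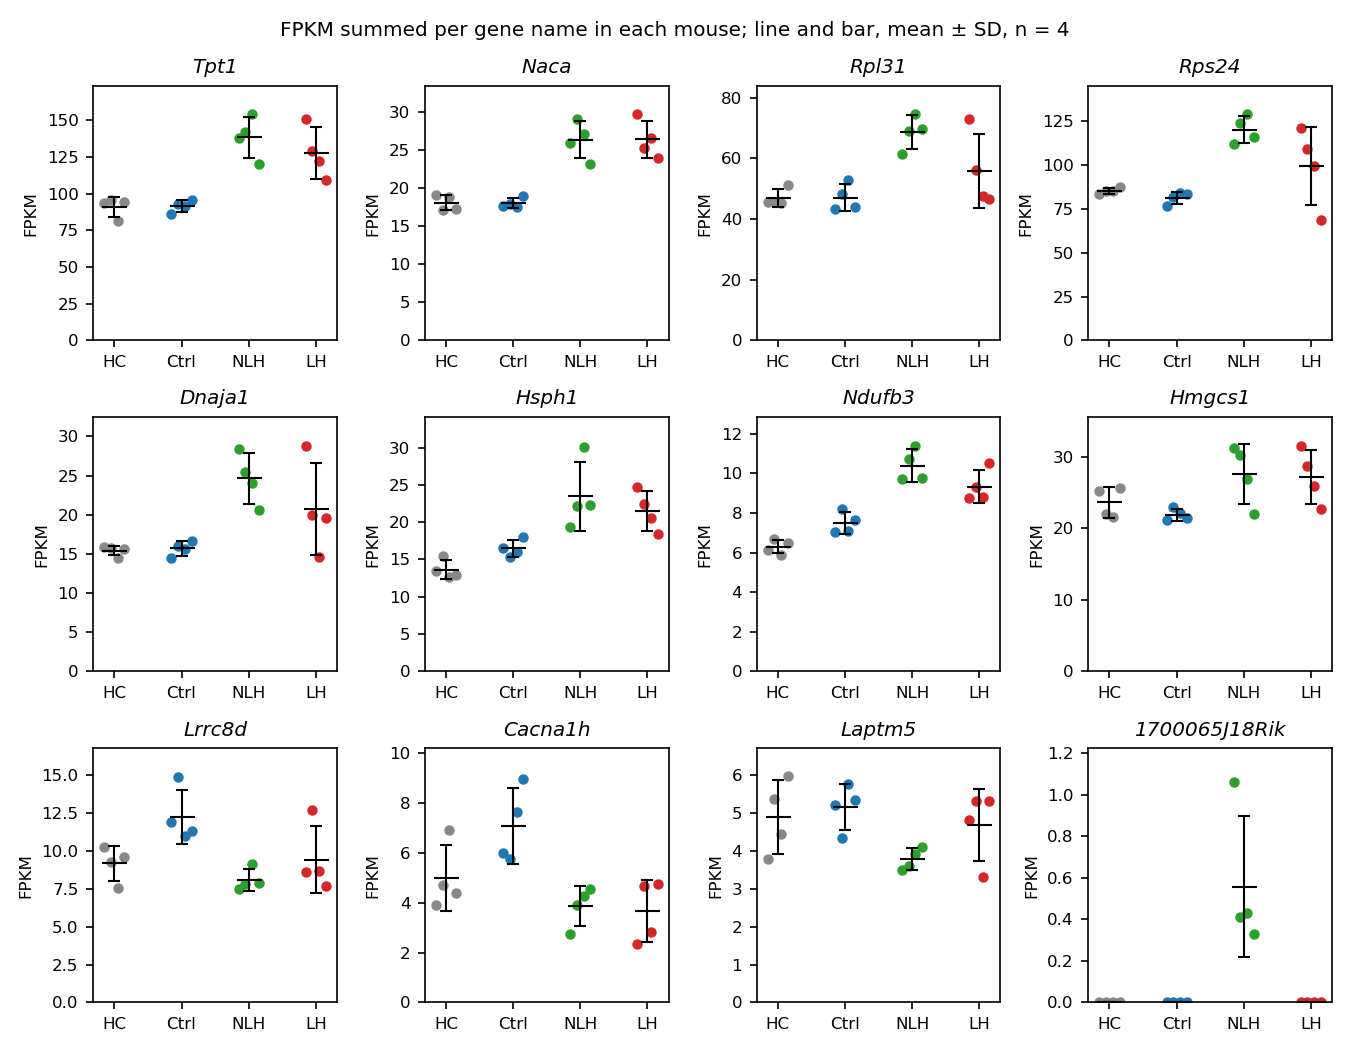
FPKM summed per gene name (y axis, from 0) in each mouse of the HC, Ctrl, NLH and LH groups for 12 genes, with 1 point per mouse and the mean ± SD (n = 4) as lines. NLH points lie above all Ctrl points for genes such as Tpt1, Naca, Rpl31, Rps24, Dnaja1 and Ndufb3, and below them for Lrrc8d, Cacna1h and Laptm5, while 1700065J18Rik is listed at 0 outside NLH.

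Heat shock proteins and their partners, which fold new and damaged proteins, had the largest share of members called higher among these lists as deposited, 33.3%. After scaling it was 27.3%, below the 28.8% of ribosomal genes. Of 33 genes, 11 were higher and 0 lower in NLH (9 and 0 after scaling), with a median log2 difference of 0.16 as deposited and 0.08 after scaling. Among all genes with a mean of at least 1 FPKM, 10.6% were higher as deposited (median 0.08) and 6.79% after scaling (median -0.00). Dnaja1, a cochaperone of Hsp70, was at 28.4, 25.5, 24.1 and 20.6 FPKM in NLH and at 14.5, 16, 15.6 and 16.7 in Ctrl. The groups did not overlap, and the log2 difference of 0.64 ± 0.15 had a limma adjusted p of 0.412. Hsph1, a nucleotide exchange factor for Hsp70, was at 19.3, 22.1, 30.1 and 22.3 FPKM in NLH and at 16.6, 15.3, 16 and 18 in Ctrl. Its groups did not overlap either, with NLH3 the highest. Stip1, which passes client proteins from Hsp70 to Hsp90, was at 14.6, 16.4, 16.8 and 14.7 FPKM in NLH and at 10.9, 10.4, 11.7 and 11.6 in Ctrl. Other members that rose without overlap were Hspd1 (9.86 to 14.6 FPKM), the mitochondrial Hsp60, and Hspa4 (18 to 21.7), Dnajb2 (7.72 to 10.7), Dnajb4 (5.64 to 7.14), Dnajb6 (16.3 to 19.5) and Chordc1 (11.5 to 14.7), although the locus sums of Chordc1 overlapped (means 15.9 and 18.5, exact permutation p = 0.0571). Hspa4l rose from 16.4 to 20.3 FPKM and Hsp90aa1, the stress-inducible Hsp90, from 147 to 174 with overlapping groups, and Hsp90aa1 and Dnajb4 were not called after scaling. The summed FPKM of the list was 1217, 1293, 1368 and 1149 in NLH and 1031 to 1163 in Ctrl, so that NLH4 alone lay within the Ctrl range. Members called higher were 20 without NLH4, 7 without Ctrl1 and 4 without NLH2 and NLH3.

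Heat shock factors bind inverted repeats of GAA. The letters GAANNTTC, which read the same on both strands, were searched in the 250 bases before RefSeq start sites (GRCm38.p6). They were found for 6 of 26 matched members, for 3 of the 10 matched members called higher, for 7.73% of 27025 gene symbols with a window, in 6.69% of 32851 windows in all and in 4.74% of the windows of genes with a mean of at least 1 FPKM. The windows of the 3 called members are shown to place the motif (capitals), at chr4:40722218-40722467 (Dnaja1), chr1:55087933-55088182 (Hspd1, minus strand) and chr5:29735648-29735897 (Dnajb6).
Dnaja1: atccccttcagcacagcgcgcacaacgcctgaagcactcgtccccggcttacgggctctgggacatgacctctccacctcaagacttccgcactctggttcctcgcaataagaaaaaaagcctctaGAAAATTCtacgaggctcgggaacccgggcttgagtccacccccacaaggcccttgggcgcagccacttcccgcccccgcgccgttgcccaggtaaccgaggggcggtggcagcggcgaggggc
Hspd1: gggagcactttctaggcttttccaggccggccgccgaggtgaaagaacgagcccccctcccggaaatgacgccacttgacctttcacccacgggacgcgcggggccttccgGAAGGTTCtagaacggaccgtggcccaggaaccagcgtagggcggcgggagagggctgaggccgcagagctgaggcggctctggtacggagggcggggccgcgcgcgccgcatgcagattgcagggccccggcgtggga
Dnajb6: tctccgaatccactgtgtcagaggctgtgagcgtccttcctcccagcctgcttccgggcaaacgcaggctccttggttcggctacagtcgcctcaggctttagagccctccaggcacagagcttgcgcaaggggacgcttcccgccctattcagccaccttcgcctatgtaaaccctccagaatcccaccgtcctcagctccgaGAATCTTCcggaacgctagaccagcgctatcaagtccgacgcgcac
In Dnaja1 the motif began 124 bases before the start, in Hspd1 139 bases and in Dnajb6 46 bases before it. A match describes these letters only, and binding was not measured.

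Nuclear-encoded subunits of the respiratory chain and ATP synthase, the site of oxidative phosphorylation, were higher for 11 of 71 genes and lower for 0 (15.5% higher, against 10.6%), with a median log2 difference of 0.16. After scaling, 9 were higher and 5 lower (median 0.08). Ndufb3, a subunit of complex I, was at 9.71, 10.7, 11.4 and 9.74 FPKM in NLH and at 7.04, 8.18, 7.08 and 7.65 in Ctrl. Its groups did not overlap (log2 difference 0.47 ± 0.10, limma adjusted p = 0.27), with means of 6.31 in HC and 9.33 in LH. Ndufs5 (26.5 to 37.9 FPKM) of complex I, Cox6b1 (56 to 71) of cytochrome c oxidase and Atp5o (53.5 to 68.1) and Atp5j2 (2.7 to 5.43) of ATP synthase rose without overlap by gene name, and Uqcrb of complex III rose from 38.3 to 53.7 with Ctrl2 (50.6) above NLH4 (48.1). Over its locus, the groups of Ndufs5 overlapped (29.2 ± 2.28 FPKM in Ctrl and 40.1 ± 7.58 in NLH, SD, n = 4, exact permutation p = 0.114). These genes are also short (median 760 bases, 35 of 71 up to 750), and members called higher were 6 without Ctrl4, 7 without Ctrl1 and 6 (with 4 lower) without NLH2 and NLH3. Of 37 proteasome subunits, 4 were higher (10.8%, near the 10.6% of all genes with a mean of at least 1 FPKM) and 1 lower (4 and 2 after scaling, 10 higher without NLH4 and 2 higher without any of NLH1, NLH2, NLH3, Ctrl1, Ctrl3 or Ctrl4 in turn). Psmd12, of the regulatory lid, was at 12.9, 13.2, 14.7 and 9.26 FPKM in NLH and at 8.41 to 10.4 in Ctrl, while Psma3, of the core particle, fell from 15 to 12.7.

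In the cholesterol pathway, which neurons and astrocytes use to make membrane sterols, 7 of 23 genes were higher and 1 lower in NLH, with a median log2 difference of 0.26 (0.19 and 5 higher with 2 lower after scaling). The higher share was 30.4% as deposited and 21.7% after scaling, against 10.6% and 6.79% of all genes with a mean of at least 1 FPKM. Pmvk, a mevalonate pathway kinase, was at 4.83, 4.82, 5.77 and 4.16 FPKM in NLH and at 2.89, 3.37, 3.53 and 3.34 in Ctrl, without overlap (log2 difference 0.56 ± 0.17). Sqle, the squalene epoxidase, was at 8.16, 8.33, 8.04 and 6.42 FPKM in NLH and at 5.37, 6.84, 6 and 6.15 in Ctrl, so that NLH4 lay within the Ctrl range. Hmgcs1, which makes the HMG-CoA that enters the pathway, was at 31.3, 30.3, 26.9 and 22 FPKM in NLH and at 21.2, 23, 22.1 and 21.4 in Ctrl. Here too NLH4 was within the Ctrl range, and Hmgcs1 was not called after scaling. Cyp51 (4.47 to 6), Sc5d (8.59 to 11), Hsd17b7 (2.46 to 2.92) and Insig1 (7.48 to 9.2), a feedback inhibitor of the pathway, were also called higher, Hsd17b7 and Insig1 as deposited only. Srebf1, a transcription factor of lipid synthesis, was the called member that fell, from 6.46 to 4.21 FPKM without overlap, but its locus sums overlapped (7.45 to 5.69, exact permutation p = 0.0857). Members called higher were 11 without NLH4, 4 without NLH1, Ctrl3 or Ctrl4, 3 without NLH2, NLH3 or Ctrl1, and 1 without NLH2 and NLH3.

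Sterol regulatory element binding proteins recognise sequences that contain CACNCCAC. These letters, searched on both strands of the same windows, occurred for 3 of 15 matched members, for 2 of the 6 matched members called higher, for 6.05% of all symbols, in 5.29% of all windows and in 5.47% of those of genes with a mean of at least 1 FPKM. Both windows are shown with the motif in capitals, at chr13:119690101-119690350 (Hmgcs1) and chr5:28071162-28071411 (Insig1, where the motif reads on the other strand).
Hmgcs1: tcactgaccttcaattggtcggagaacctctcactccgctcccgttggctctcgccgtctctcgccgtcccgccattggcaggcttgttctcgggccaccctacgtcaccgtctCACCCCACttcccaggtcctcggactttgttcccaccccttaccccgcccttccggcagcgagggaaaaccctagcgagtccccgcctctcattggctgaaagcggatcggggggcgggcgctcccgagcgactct
Insig1: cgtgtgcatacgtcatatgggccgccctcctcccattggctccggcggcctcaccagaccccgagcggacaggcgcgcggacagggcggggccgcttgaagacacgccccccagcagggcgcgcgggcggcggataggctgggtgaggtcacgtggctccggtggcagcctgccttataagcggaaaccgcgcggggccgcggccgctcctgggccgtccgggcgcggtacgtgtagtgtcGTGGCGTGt
The motif began 136 bases before the start of Hmgcs1 and 9 bases before that of Insig1.

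RNA-binding and chromatin genes moved less evenly between the scales. Of 50 SR, hnRNP and related splicing factors, 11 were higher and 0 lower as deposited, but 4 were higher and 1 lower after scaling, 7 were higher without NLH3 and 4 without NLH2 and NLH3. The higher share was 22% against 10.6% of all genes with a mean of at least 1 FPKM, and 8% against 6.79% after scaling. Those called on both scales were Hnrnpa1 (23.7 to 31.3 FPKM), Hnrnpu (34.3 to 41.7), Hnrnpul1 (8.03 to 9.7) and Tardbp (28.8 to 35.7), which encodes TDP-43. Of 63 chromatin genes, 5 were higher (7.94%, below the 10.6% of all genes with a mean of at least 1 FPKM) and 1 lower (4 and 4 after scaling, 11 and 0 without NLH4, 2 and 0 without NLH2 or Ctrl1, 3 and 0 without Ctrl2, 3 and 1 without Ctrl3). Ncor1, a corepressor that recruits histone deacetylase, was at 47.4, 37, 38.5 and 39.7 FPKM in NLH and at 24.1, 32.6, 31.7 and 26.6 in Ctrl, without overlap (log2 difference 0.50 ± 0.14). Crebbp, a histone acetyltransferase, rose from 7.3 to 9.53 FPKM without overlap, and Setd2, which methylates lysine of histone H3, rose from 6.31 to 9.39 with NLH4 (6.26) inside the Ctrl range. Tet2, an enzyme of DNA demethylation, rose from 1.48 to 2.55 FPKM, but with all transcripts of its locus the means were 4.79 and 5.61 (exact permutation p = 0.0571). Of 22 clock genes, Arntl (2.99 to 3.68) and Bhlhe40 (8.31 to 9.55) were called higher and 0 lower (9.09%, below the same 10.6%). After scaling neither was called, and Csnk1d (16.3 to 12 FPKM as deposited) and Cry2 (12.9 to 12.2) were called lower. Without NLH1, 4 clock genes were called higher.

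**Figure D3:**
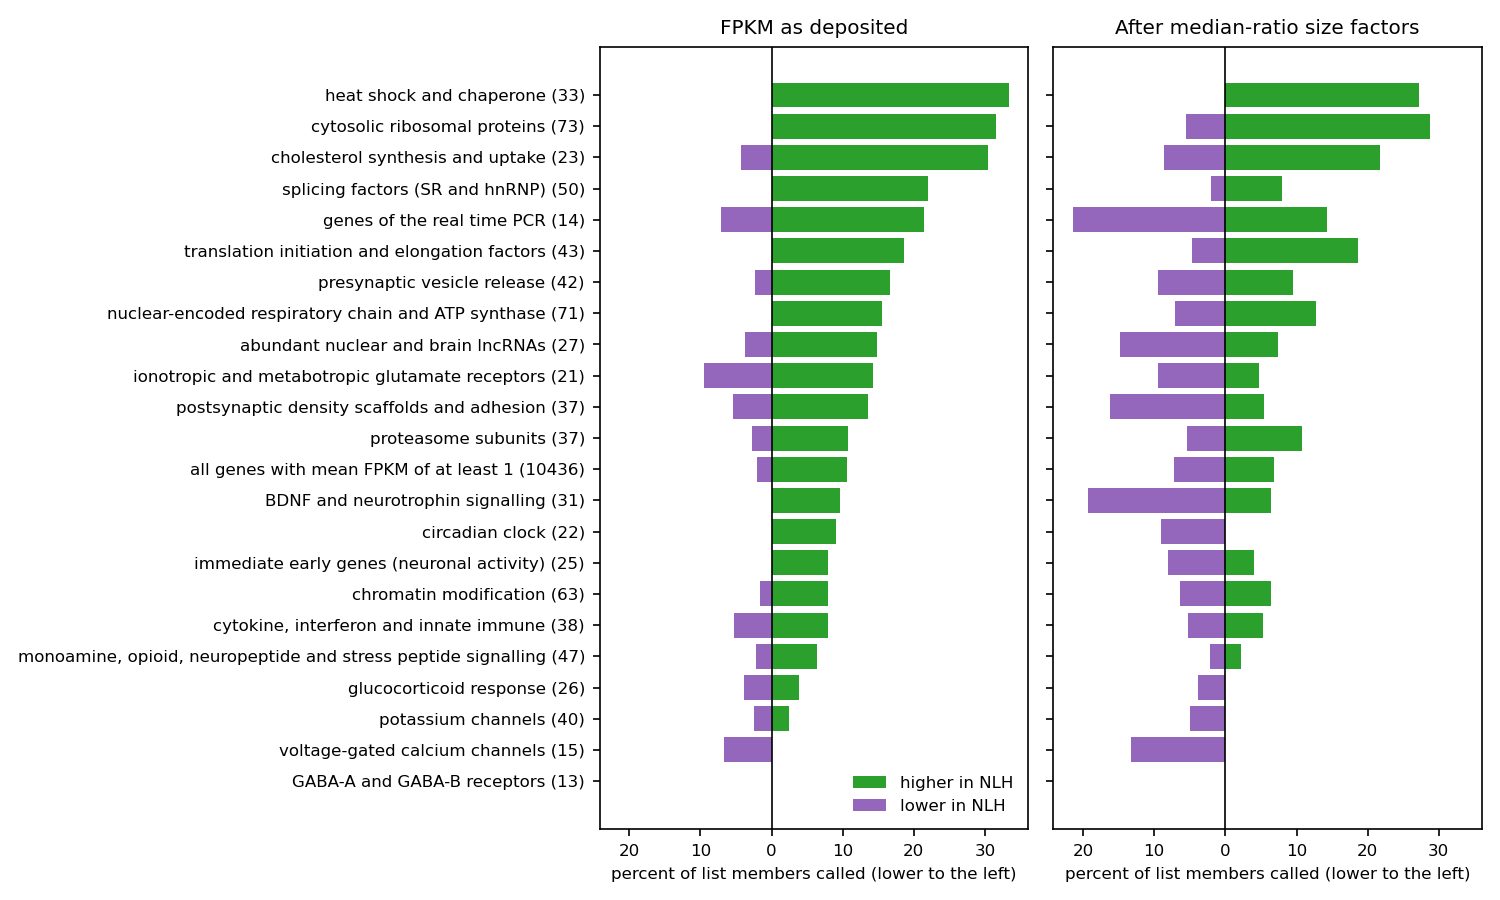
Percent of the members of each gene list called higher (green, to the right) or lower (purple, to the left) in NLH, for FPKM as deposited (left panel) and after size factors (right panel), with the number of genes measured in parentheses. Chaperone, ribosomal and cholesterol genes have the longest bars to the right on both scales, at 33.3%, 31.5% and 30.4% as deposited, against 10.6% for all genes with a mean of at least 1 FPKM.

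Synaptic genes were called in both directions. Of 42 presynaptic genes, 7 were higher and 1 lower (4 and 4 after scaling, 5 and 0 without Ctrl4). The higher share was 16.7% as deposited and 9.52% after scaling, against 10.6% and 6.79% of all genes with a mean of at least 1 FPKM. Erc2, of the active zone, was at 24.1, 23.9, 22.6 and 21.4 FPKM in NLH and at 13.2, 18.4, 19.5 and 15.9 in Ctrl, without overlap. With all transcripts of its locus the means were 39 FPKM in NLH and 34.9 in Ctrl. Unc13b (4.56 to 6.22 FPKM, Ctrl mean to NLH mean), which primes synaptic vesicles, rose without overlap and was called on both scales. The vesicular glutamate transporters differed in direction: Slc17a7 fell from 140 to 125 FPKM and Slc17a6 rose from 1.83 to 2.74. The log2 difference of Slc17a6 was 0.58 as deposited and 0.51 after scaling, where it was not called (unadjusted p = 0.0913). Slc17a6 is also the 1 called member of 9 thalamic markers, and the part of neighbouring tissue was not tested.

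On the postsynaptic side, 5 of 37 scaffold and adhesion genes were higher and 2 lower as deposited, but 2 were higher and 6 lower after scaling, so that the higher share was 13.5% and then 5.41%, against the same 10.6% and 6.79%. Psd3, of the postsynaptic density, was at 59.1, 60.4, 59.8 and 52.9 FPKM in NLH and at 44.7, 50.5, 48.1 and 47 in Ctrl, and was called on both scales. Dlg2, the scaffold PSD-93, rose from 37.6 to 44.8 FPKM, and Cacng3, an auxiliary subunit of AMPA receptors, from 8.86 to 11.6, but Cacng3 was not called after scaling. Lrrtm4 (12 to 9.96), a synapse organizer, and Cnih2 (51.8 to 42.4), another AMPA receptor subunit, fell on both scales. The calls in this list (higher and lower) were 10 and 2 without NLH1, 3 and 1 without NLH3 or Ctrl1, 2 and 1 without NLH2, 3 and 0 without Ctrl2, Ctrl3 or Ctrl4, and 1 and 3 without NLH2 and NLH3.

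Among 21 glutamate receptor genes, 3 were higher and 2 lower (1 and 2 after scaling). The higher share was 14.3% as deposited and 4.76% after scaling, against 10.6% and 6.79% of all genes with a mean of at least 1 FPKM. The higher calls were lost without Ctrl1 or Ctrl4, 1 was left without NLH2 or NLH3, and 5 were called without NLH4. Grm2, a presynaptic metabotropic receptor, was at 3.24, 3.58, 3.41 and 3.14 FPKM in NLH and at 5.56, 5.58, 5.03 and 3.78 in Ctrl. Its groups did not overlap (log2 difference -0.55 ± 0.25), and the HC mean was 3.41 and the LH mean 3.69, both nearer to NLH than to Ctrl. Grin1, the obligatory NMDA receptor subunit, fell from 44 to 39.2 FPKM without overlap (44.3 to 41.8 over the locus, where the groups overlapped, exact permutation p = 0.0857), and Grm8 rose from 2.77 to 3.73 but was not called after scaling. Of 13 GABA receptor genes, 0 were called by the methods' t-test at its unadjusted p on either scale, 2 were called higher without NLH4, and 1 higher and 1 lower without NLH1. Their smallest limma adjusted p was 0.982.

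Of the ion channels, the T-type calcium channel gene Cacna1h was at 2.74, 3.9, 4.25 and 4.55 FPKM in NLH and at 5.98, 5.74, 7.66 and 8.95 in Ctrl. All NLH mice lay below all Ctrl mice (log2 difference -0.86 ± 0.24, limma adjusted p = 0.522), and with all transcripts of the locus the means were 10.1 and 15.3. It was the 1 called gene of 15 voltage-gated calcium channel genes as deposited (0 higher and 2 lower after scaling), where 2.08% of all genes were called lower, and its means were 4.99 in HC and 3.65 in LH. Of 40 potassium channel genes, the leak channels Kcnk9 (4.94 to 3.3 FPKM) and Kcnk2 (4.94 to 6.31) were called in opposite directions, Kcnk2 as deposited only, and 6 were called higher without NLH4. The higher share of 2.5% was below the 10.6% of all genes with a mean of at least 1 FPKM, and after scaling 0 were higher and 2 lower. Lrrc8d, a subunit of volume-regulated anion channels, was at 7.48, 7.84, 9.18 and 7.88 FPKM in NLH and at 11.9, 14.9, 11 and 11.3 in Ctrl, without overlap (log2 difference -0.59 ± 0.15). Its HC and LH means, 9.2 and 9.43, were between those of NLH and Ctrl.

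Genes that respond to activity and stress hormones within hours were examined 3 h after the test. Of 25 immediate early genes, Gadd45b (0.898 to 1.15 FPKM) and Rheb (11 to 12.3) were called higher and 0 lower, or 8% against 7.39% over all genes. After scaling, Gadd45b was not called and Nptx2 (2.63 to 2.29 FPKM as deposited) and Klf4 (0.481 to 0.33) were called lower. Higher calls were 0 without Ctrl4, 1 without NLH1, NLH2, NLH3, Ctrl1 or Ctrl2, and 3 without NLH4. Fos was at 2.04, 0.759, 1.65 and 1.35 FPKM in NLH and at 1.09, 1.24, 0.915 and 1.73 in Ctrl. Arc was at 10.3, 7.1, 10.6 and 8.5 FPKM in NLH and at 9.37, 9.28, 9.63 and 13.9 in Ctrl. Npas4 was at 0.708, 0.44, 0.581 and 0.647 FPKM in NLH and at 0.497, 0.459, 0.462 and 0.565 in Ctrl. The groups overlapped for all of Fos, Arc and Npas4, with exact permutation p-values of 0.543, 0.429 and 0.229 at the locus. Of 26 genes of the glucocorticoid response, Hsp90aa1 was called higher and Nfkbia, the inhibitor of NF-kappaB, lower (2.3 to 1.57 FPKM, without overlap). The higher share of 3.85% was below the 7.39% of all genes. Hsp90aa1 was not called after scaling, nor when any 1 mouse other than NLH4 was left out. Sgk1, a kinase induced by corticosteroids, was at 9.49, 18.7, 20.3 and 10.6 FPKM in NLH and at 18.9, 45.5, 19 and 15 in Ctrl, with Ctrl2 far above the rest. Fkbp5, a corticosteroid-induced cochaperone, was at 2.2, 5, 6.91 and 5.84 FPKM in NLH and at 2.91, 5.67, 4.43 and 1.43 in Ctrl. The log2 difference of Fkbp5 was 0.51 by gene name and -0.15 over its locus, and neither Sgk1 nor Fkbp5 was called.

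Of 31 genes of neurotrophin signalling, 3 were higher, among them Pik3r1 (7.93 to 10.6 FPKM) and Sorcs1 (1.41 to 1.85) without overlap, and 0 were lower, but after scaling 2 were higher and 6 lower, and without NLH4 5 were higher. Sorcs1 was not called after scaling. The share called higher as deposited, 9.68%, was below the 10.6% of all genes with a mean of at least 1 FPKM. Among 47 monoamine and neuropeptide genes, Drd1 (0.807 to 1.04), Sstr2 (1.24 to 1.62) and Tacr3 (0.287 to 0.535) were called higher and Adra1d (6.62 to 5.16) lower. The higher calls were 6.38% of the list, against 7.39% of all genes. Sstr2 and Tacr3 were not called after scaling, and higher calls were 1 without NLH2 or Ctrl3, 2 without Ctrl1 or Ctrl2 and 5 without NLH1. Of these, the dopamine receptor gene Drd1 was at 1.06, 1.15, 0.9 and 1.04 FPKM in NLH and 0.77 to 0.839 in Ctrl. It is also the 1 called gene of 13 striatal markers, whose summed FPKM was 25.8 to 36 in NLH and 27.6 to 31.7 in Ctrl. Of 38 cytokine and innate immune genes, B2m (10.6 to 13.7) and C3 (0.166 to 0.458) were called higher without overlap, as was Il1b at levels under 0.1 FPKM. Nfkbia and H2-K1 (3.31 to 2.74) were called lower (2 higher and 2 lower in the list after scaling, B2m not being called there). Lower calls were 1 without NLH1, NLH4, Ctrl1, Ctrl2 or Ctrl3, and 3 without NLH3. The higher calls were 7.89% of the list, near the 7.39% of all genes.

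Microglial genes were called lower in 3 of 14 cases and higher in 0 (4 and 0 after scaling, 5 lower and 1 higher without NLH3). Of all genes tested, 2.08% were called lower as deposited and 5.41% after scaling. Laptm5, a lysosomal membrane protein, was at 3.5, 3.6, 3.93 and 4.12 FPKM in NLH and at 5.22, 4.34, 5.78 and 5.35 in Ctrl, without overlap. Tmem119, a surface protein of resident microglia, was at 2.17, 2.7, 2.97 and 2.73 FPKM in NLH and at 3.44, 3.62, 3.46 and 3.26 in Ctrl, and Fcrls fell from 4.32 to 3.93. Defining markers such as P2ry12 (9.7 FPKM in Ctrl and 9.46 in NLH), Csf1r (7.81 and 7.93) and Cx3cr1 (4.93 and 5.42) were not called, and the summed FPKM of the list overlapped (73.4 to 92.9 in NLH, 77.1 to 87.5 in Ctrl). Cd53, a tetraspanin of leukocytes and microglia that was not in the list, was at 1.76, 1.31, 1.32 and 1.31 FPKM in NLH and at 2.07, 2.09, 2.06 and 2.13 in Ctrl. For 9 markers of dentate granule cells, all 9 NLH means were below the Ctrl means (median log2 difference -0.26) and 0 were called, although Glis3 and Pdzd2 were called lower after scaling. Their summed FPKM was 44.4, 40, 53.3 and 36.1 in NLH and 46.2 to 53 in Ctrl, so that NLH3 was just above the Ctrl range and the other NLH mice below it. Without NLH3, 4 of the 9 were called lower. Of 14 endothelial and pericyte markers, Flt1, Cdh5 and Vtn were called higher as deposited (0 without Ctrl1, 1 without NLH1, NLH2, Ctrl3 or Ctrl4) and 0 after scaling. This was 21.4% of the list as deposited, against 7.39% of all genes. The 12 choroid plexus markers gave 0 calls, and their summed FPKM was 26.8, 31.5, 72.4 and 4.38 in NLH and 21.2 to 62.4 in Ctrl. Their part in the other results was not tested.

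Ranked by limma p among genes with a mean of at least 1 FPKM, the leading higher genes included Dnal1, Rbm28, Naca, Tpt1, Ywhaz, R3hdm1, Nudt9 and Gabpa, and the leading lower genes were Mtch1, Gm29542, Lrrc8d, Gm44026, Cacna1h, Nos1ap, Lingo3, Cd53, Celf5 and Sf3b1. None had a limma adjusted p under 0.05, and the smallest was 0.0647 for Dnal1 and Rbm28. Dnal1, a dynein light chain gene (chr12:84114366-84147498, plus strand, mm10), was at 17.7, 13.4, 17.2 and 11.9 FPKM in NLH and at 6.57, 9.05, 7.43 and 8.52 in Ctrl. The groups did not overlap, and the means were 9.63 in HC and 15.8 in LH. Its locus holds transcripts of more than 1 gene name. Nudt9, a mitochondrial ADP-ribose hydrolase (chr5:104046306-104065379, plus strand), was at 12.5, 13.4, 10.2 and 10.3 FPKM in NLH and at 6.61, 5.41, 7.56 and 5.66 in Ctrl, without overlap. Its means were 7.03 in HC and 7.81 in LH, both near Ctrl. R3hdm1, an RNA-binding protein gene (chr1:128103301-128237736, plus strand), was at 13.7, 15.1, 14.1 and 15.1 FPKM in NLH and at 8.01, 8.04, 8.01 and 7.33 in Ctrl, with means of 8.39 in HC and 14.6 in LH. Gabpa, a transcription factor of nuclear genes for mitochondria, was at 4.19, 3.2, 4.37 and 2.99 FPKM in NLH and at 2.09 to 2.33 in Ctrl, without overlap. Nos1ap, an adaptor of neuronal nitric oxide synthase, fell from 3.89 to 2.28 FPKM without overlap.

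Between 19.1% and 20.9% of the FPKM in these 8 mice belonged to assembled transcripts without a gene name, most of them within named loci, and several leading differences were smaller when these were added to the sum (an alternative chosen after the values had been seen). Ywhaz, a 14-3-3 adaptor gene (chr15:36770770-36796929, minus strand), was at 87.4, 107, 101 and 73.5 FPKM in NLH and at 45.7, 58.9, 59.3 and 53.6 in Ctrl by gene name. Over the locus its means were 259 ± 26.2 in NLH and 242 ± 10.8 in Ctrl (SD, n = 4), with an exact permutation p of 0.257. Mtch1, a mitochondrial outer membrane protein gene, was at 1.78, 1.55, 1.28 and 1.78 FPKM in NLH and at 3.22, 3.47, 9.17 and 7.55 in Ctrl, but its locus means were 48.2 and 56.2 (exact permutation p = 0.0571). The log2 difference went from -3.60 to -0.35 for Lingo3, from 1.61 to 0.37 for Rbm28 and from 0.88 to 0.36 for R3hdm1, all without overlap of the groups at the locus. For Sf3b1, a splicing factor gene, it went from -0.37 to -0.23 with an exact permutation p of 0.143. By contrast, the log2 differences over the locus were 0.59 for Tpt1, 0.55 for Rps24, 0.50 for Naca, 0.86 for Nudt9, -0.54 for Lrrc8d and -0.53 for Cd53, within 0.1 of those by gene name.

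**Figure D4:**
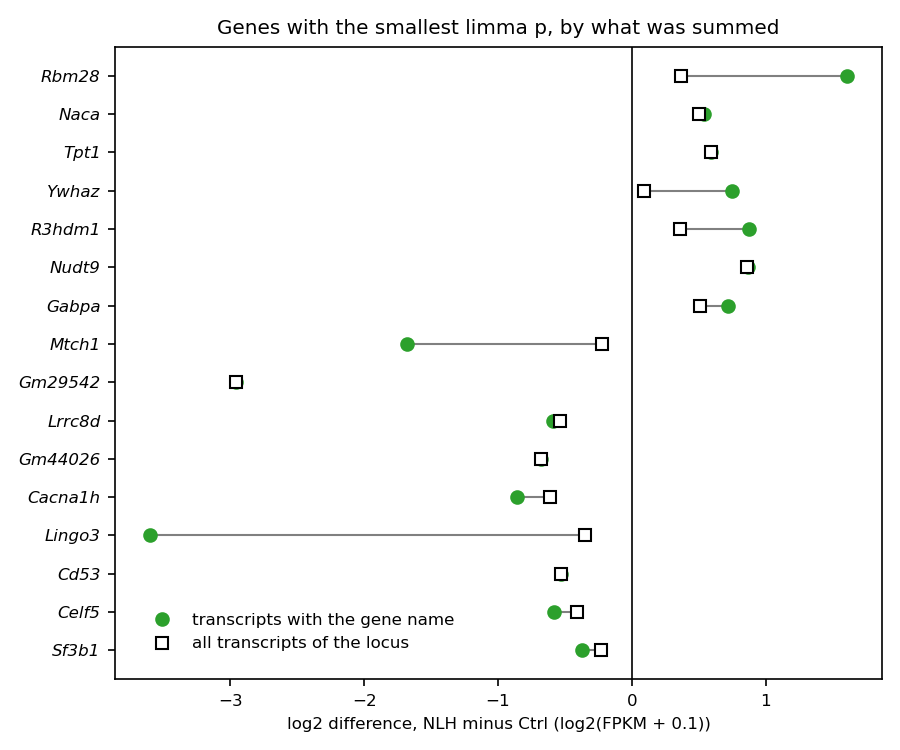
Log2 difference (NLH minus Ctrl, x axis) of 16 leading genes, summed over transcripts with the gene name (green circles) or over all transcripts of the locus (open squares), with a line joining both values of a gene. The values coincide for Tpt1, Nudt9 and Cd53, whereas Ywhaz, Mtch1, Lingo3 and Rbm28 move towards 0 at the locus.

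Long noncoding RNAs were called for 161 genes, 93 higher and 68 lower in NLH (62 and 99 after scaling). These were 3.09% and 2.26% of 3012 lncRNA genes tested, against 7.49% and 2.08% of all genes, and 2.06% and 3.29% after scaling, against 4.89% and 5.41%. The gene past the limma threshold was 1700065J18Rik, a lincRNA whose transcript of 348 bases lies at chr1:192841671-192842740 (plus strand, mm10) in 2 exons. It was at 1.06, 0.409, 0.429 and 0.33 FPKM in NLH and at 0 in every Ctrl, HC and LH mouse (limma adjusted p = 0.000456 by gene). With the estimated depth and an assumed fragment length of 200 bases, these values correspond to 4.2, 1.9, 2.1 and 1.8 fragments in the 4 NLH mice. The result thus rests on few fragments per mouse. The limma p also pools the spread over all 16 mice. Values of 0 in the Ctrl, HC and LH mice have no spread, so the pooled spread understates that of NLH (mean 0.557, SD 0.338 FPKM). The methods' t-test on the 8 NLH and Ctrl mice gave an unadjusted p of 0.0165. The first 300 bases of the transcript, read from the mm10 genome, are shown because it is the gene that passed.
1700065J18Rik: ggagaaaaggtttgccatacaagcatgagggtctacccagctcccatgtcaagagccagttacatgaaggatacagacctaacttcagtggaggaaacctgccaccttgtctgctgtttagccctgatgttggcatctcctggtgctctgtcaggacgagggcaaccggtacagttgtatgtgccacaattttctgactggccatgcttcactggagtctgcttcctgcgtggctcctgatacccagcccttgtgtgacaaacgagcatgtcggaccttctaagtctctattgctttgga

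Gm29542, an antisense transcript of 704 bases (chr12:31486958-31487889, plus strand), was at 1.21, 0.0969, 0.0106 and 0.571 FPKM in NLH and at 2.41, 2.61, 2.5 and 3.93 in Ctrl, without overlap. These were an estimated 34.8 to 69.1 fragments in the Ctrl mice and 0.2 to 16.5 in the NLH mice, and the means were 1.7 in HC and 3.39 in LH. It is not stated whether the libraries kept strand, so reads of an antisense transcript and its partner cannot be told apart. Among lncRNAs known for nuclear or neural roles, Sox2ot, transcribed across the Sox2 gene, was at 7.04, 5.81, 6.32 and 6.18 FPKM in NLH and at 4.6, 3.99, 4.37 and 5.6 in Ctrl. Pantr1 was at 13, 19, 20.1 and 20.8 FPKM in NLH and at 13.8, 10.3, 13.9 and 11.4 in Ctrl, with NLH1 inside the Ctrl range. Neat1, the scaffold of paraspeckles, rose from 6.76 to 8.38 FPKM, and was not called after scaling. Of 27 such lncRNAs, 4 were called higher and 1 lower, but 2 higher and 4 lower after scaling (1 and 1 without NLH3, with 2 higher without NLH2, NLH4, Ctrl1 or Ctrl2). The higher share was 14.8% against 10.6% of all genes with a mean of at least 1 FPKM, and 7.41% against 6.79% after scaling. Further lncRNA genes by limma p were Gm21984, Gm9989 and Gm9866, called higher, and Gm44026, E230029C05Rik and Rab11fip4os2, called lower. Gm44026 was at 1.32, 1.49, 1.9 and 1.63 FPKM in NLH and at 2.84, 2.48, 2.66 and 2.37 in Ctrl, without overlap. Gm9989 was listed at 0 in NLH2 and in each Ctrl mouse, and was at 2.18, 1.76 and 1.24 FPKM in the other NLH mice.

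Transcripts of the same gene could differ in direction, about as often for called mRNAs as for others. A called transcript was found in 3401 genes, of which 1317 were called as a gene, and 409 genes were called without a called transcript. In 344 of the 3401 genes, transcripts were called in both directions, and the number that chance would give was not tested. The median called mRNA held 18.2% of the FPKM of its gene, and the remaining transcripts of the gene had a difference of the opposite sign for 53.2% of called and 50.6% of other mRNAs. In Suclg1, of the succinate-CoA ligase of the citric acid cycle, the transcript ENSMUST00000123159.7, annotated for nonsense-mediated decay, was at 3.36, 6.91, 5.29 and 8.35 FPKM in Ctrl and under 0.01 in all NLH mice (limma adjusted p = 0.0146). The full-length mRNA ENSMUST00000064740.8 was at 10.1, 13.3, 11.5 and 12.2 FPKM in Ctrl and at 18.2, 15.8, 13.7 and 14.3 in NLH. Its share of the gene went from 59.7% to 90.3%, while the decay transcript was at a mean of 4.05 FPKM in HC and 0.378 in LH. In Rps18, of the small ribosomal subunit, the noncoding ENSMUST00000174745.7 fell from 42.5% to 0.192% of the gene as the mRNA ENSMUST00000008812.7 went from 46.8% to 91.9%. In Ube2m, an enzyme of neddylation, the retained-intron ENSMUST00000131837.7 went from 74.9% to 43.4% and the mRNA ENSMUST00000125964.7 from 4.19% to 30.2%. Opposite calls were also found in Ak4, Atn1, Aig1, Stx16, Mapkap1, Nkain4 and Fam92a. These 10 genes were chosen for the largest changes in share. Only the decay transcript of Suclg1 among their called pairs was past the limma threshold. For the Suclg1 mRNA the limma adjusted p was 0.851, for the Ube2m pair 0.659 and 0.521, and for the falling Rps18 transcript 0.122. The rising Rps18 mRNA had an unadjusted limma p of 0.443. After scaling, the higher transcripts of Suclg1 (unadjusted p = 0.0546) and Stx16 (0.0583) were not called, and the other calls in these 10 genes were kept. FPKM of overlapping transcripts are estimates that divide shared reads.

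The other transcripts past the limma threshold were mostly of low level. The mRNA ENSMUST00000110362.3 of Ywhaz was at 76.5, 90.2, 87.2 and 63.3 FPKM in NLH and at 31, 35.2, 42.3 and 30 in Ctrl (log2 difference 1.19 ± 0.16, limma adjusted p = 0.0369). It held 63.7% of the named FPKM of the gene in Ctrl and 86.1% in NLH, whereas the locus sum above did not separate the groups. Ank3, which anchors channels at the axon initial segment, had a decay transcript at 4.53, 5.55, 5.75 and 5.29 FPKM in NLH and at 2.62, 2.49, 2.71 and 3.27 in Ctrl. This transcript, ENSMUST00000182665.7, held 4.25% of the gene in Ctrl and 7.31% in NLH. Transcripts of Hnrnpk, Uri1, Tbc1d31 and Ylpm1 were higher and at most 1.54 FPKM in any NLH mouse, and those of Pgm3 and Phc1 were lower and at most 1.72 FPKM in any Ctrl mouse. Among transcripts with a mean of at least 1 FPKM, ENSMUST00000125824.7 of Set, a histone chaperone, was at 15.8, 15.5, 15.3 and 10.6 FPKM in NLH and at 6.33 to 7.31 in Ctrl, with a limma adjusted p of 0.0703. The short Calm3 transcript ENSMUST00000173139.1, of a calmodulin gene, was at 22.6, 6.67, 20.3 and 16.8 FPKM in Ctrl and under 0.01 in all NLH mice.

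**Figure D5:**
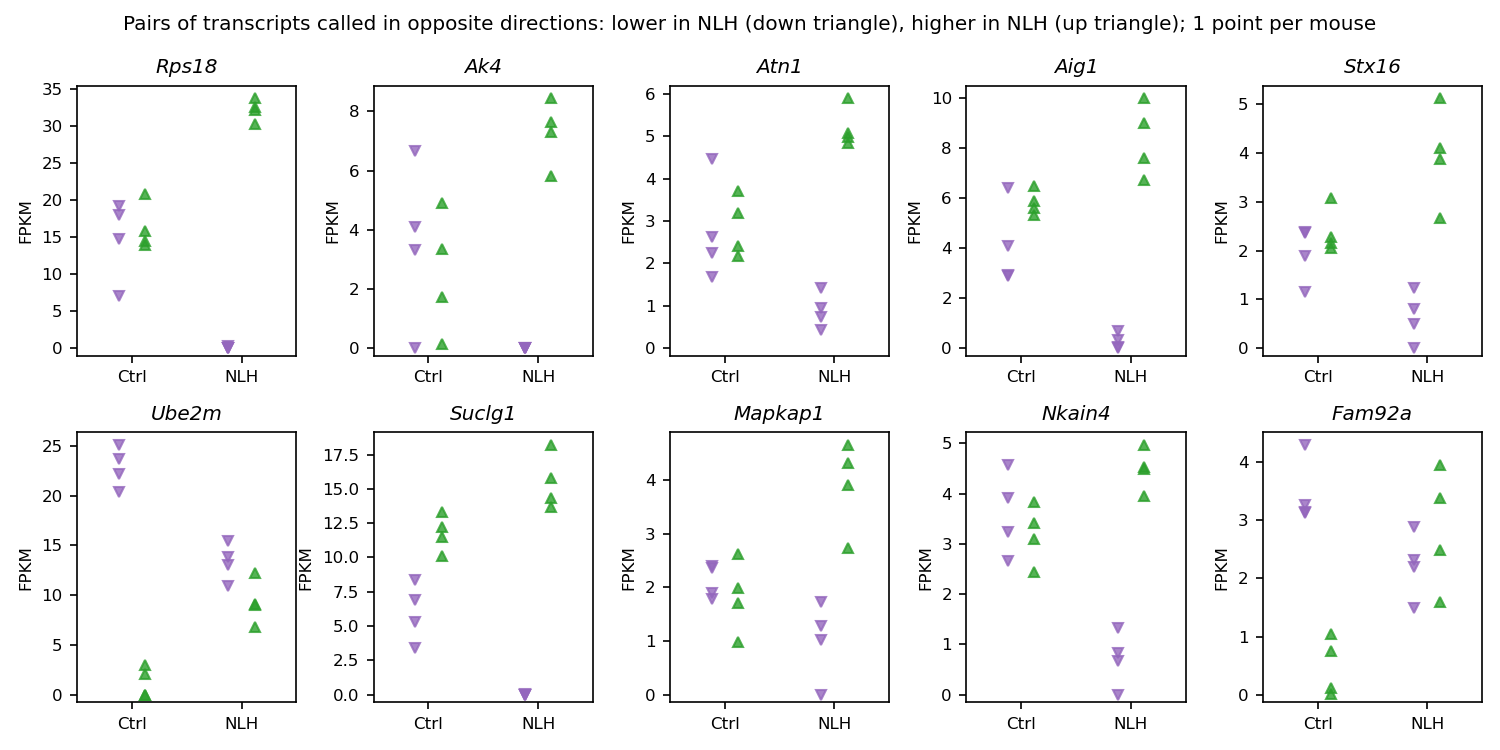
FPKM (y axis) of pairs of transcripts of the same gene in the 4 Ctrl and 4 NLH mice, for 10 genes with calls in both directions; down triangles (purple) are the transcript called lower in NLH and up triangles (green) the transcript called higher. In Rps18 and Suclg1 the lower transcript is at most 0.25 FPKM in every NLH mouse.

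Genes also measured by real time PCR are those chosen in the study with these libraries known, for comparisons of LH with Ctrl or NLH, and Gapdh, its internal control, and they are not independent evidence. Of these 14 genes, 3 were called higher and 1 lower (2 and 3 after scaling). The higher share was 21.4% as deposited and 14.3% after scaling, against 10.6% and 6.79% of all genes with a mean of at least 1 FPKM. Of all genes tested, 2.08% were called lower as deposited and 5.41% after scaling. The higher calls were lost without Ctrl1 or NLH2, and without NLH3 the 1 higher call was the antisense lncRNA ENSMUSG00000110020. Dlg2, Prkacb (34.8 to 39.2 FPKM), a catalytic subunit of protein kinase A, and the lncRNA 1700109K24Rik (1.78 to 2.39) were called higher. The lncRNA Gm26859 was at 0.782, 0.759, 0.754 and 0.707 FPKM in NLH and at 1.06, 1.1, 1.03 and 0.835 in Ctrl, without overlap. The lncRNA ENSMUSG00000110020 (chr7:45830895-45835249, plus strand) was at 1.11, 0.116, 6.76e-05 and 1.14 FPKM in NLH and at most 0.0495 in Ctrl, with a mean of 1.11 in LH. NLH3 lay within the Ctrl range, and over the locus the means were 1.36 in Ctrl and 1.65 in NLH (exact permutation p = 0.286). The log2 differences of the others were 0.19 for Nub1, 0.00 for Rbfox2, 0.62 for Cacnb4, 0.06 for Rab3a, -0.02 for Tcf4, 0.01 for Grik2, -0.39 for Gm16364, -0.10 for Miat and -0.16 for Gapdh, and none of them was called as deposited. After scaling, Gm16364 and Miat were called lower and 1700109K24Rik was not called. Cacnb4, a calcium channel beta subunit, was at 16.9, 25.6, 27.8 and 28.2 FPKM in NLH and at 17, 11.8, 25.7 and 11.5 in Ctrl, with overlapping groups.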

How the data were processed

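RNA of both hippocampi was sequenced for 16 mice after a total RNA library kit, and 4 NLH and 4 Ctrl mice were compared here. The authors aligned reads to the mouse genome (mm10), assembled transcripts with StringTie 1.2.3 and computed FPKM with Cufflinks. HISAT2 is named as aligner in the methods and STAR in the submitters' processing notes. The deposited table holds FPKM per transcript, filtered by limits not given in the sources used here. It has no X, Y or mitochondrial transcripts, and whether strand was kept is not stated. Counts were not given, so depth was estimated from the steps of low values.

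FPKM was tested per transcript and summed per gene name by the methods' t-test (equal variances, two-sided, unadjusted p under 0.05), and by limma 3.58.1 on log2(FPKM + 0.1) over all 16 mice with 4 group means, trend and robust settings and Benjamini-Hochberg adjustment. Log2 differences and SE are from limma, and understate changes of low genes. Exact permutation tests were two-sided. Scaled values were divided by median-ratio size factors. Scripts were tested on simulated data (Python 3.11.15, R 4.3.3).

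Named were all features past the limma threshold, the 10 genes and 10 transcripts per direction with the smallest limma p at a mean of at least 1 FPKM, 4 lncRNA genes per direction at 0.5 FPKM, up to 4 members per list, the PCR genes with Fos, Arc, Npas4, Fkbp5 and Sgk1, and 10 genes with opposite isoform calls. A few items that this rule names are not reported here. Further list members were picked for mention with their values in view. The comparison, lists and tests were chosen with earlier results of these data known. Sequences were taken from RefSeq (GRCm38.p6) and the mm10 genome.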

Additional observations from a re-analysis of the deposited data

Results flagged for a closer look

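In 28 of 354 groups of 4 values examined, the highest or lowest mouse stood apart from the other mice of its group by Dixon's 95% criterion. Chance gives about 1 in 20 groups. The mouse was NLH1 in 7 cases, NLH2 in 2, NLH3 in 1, NLH4 in 4, Ctrl1 in 4, Ctrl2 in 3 and Ctrl4 in 7, and Ctrl3 in 0.

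Among genes named for a difference, Lingo3 was at 1.92 FPKM in NLH3 and at most 0.023 in the other NLH mice, so that the large log2 difference of Lingo3 rests on those. Sf3b1 was at 26.1 FPKM in NLH1, within the Ctrl range, and at 18 to 18.6 in the others. Cd53 was at 1.76 FPKM in NLH1, 1700065J18Rik at 1.06 in NLH1, Sorcs1 at 2.14 in NLH4 and Grm7 at 15.1 in NLH2, all highest in the NLH group. Eif4e (20.7 FPKM) and Sqle (6.42) were lowest in NLH4, and Miat (18.8) and Gapdh (37.2) lowest in NLH1.

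In the Ctrl group, Sgk1 was at 45.5 FPKM in Ctrl2 and at 15 to 19 in the others, and Kcnk9 was at 5.62 in Ctrl2. In Ctrl4 the values were 7.33 FPKM for R3hdm1 (lowest), and 3.93 for Gm29542, 16.4 for Rpl23a, 3.72 for Nr1d1, 9.51 for Pdzd2 and 13.9 for Arc (highest). Ctrl1 was lowest for Eef1g (19.7 FPKM) and for the summed astrocyte markers (886 FPKM).

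Of transcripts, those of Pgm3 (0.137 FPKM) and Abi1 (3.46) were highest in NLH1, that of Rps18 (0.25) highest in NLH2 and that of Set (10.6) lowest in NLH4. Transcripts of Ylpm1 (0.107 FPKM) and Fam92a (4.3) were highest in Ctrl1, that of Oxct1 (0.794) in Ctrl2 and that of Fez1 (0.462) in Ctrl4.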

How the results depend on the processing

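Of 5707 transcripts called, 2861 had a mean of at least 1 FPKM, 3 passed a Benjamini-Hochberg adjusted p, and summing per gene name gave 1726 genes, of which 2 passed the adjustment. Groups did not overlap in 1105 genes, called or not. Without 1 mouse, the transcripts called were 4442 to 6703 and the genes 1250 to 2379. Limma passed 10 transcripts, 4101 at an unadjusted p, 34 with only the 8 mice in the fit, 3 at a mean of at least 1 FPKM and 8 to 47 without 1 mouse. It passed 1 gene, 1023 at an unadjusted p, 8 with only the 8 mice, 0 at a mean of at least 1 FPKM (659 higher and 90 lower at an unadjusted p), 5 after size factors and 1 to 6 without 1 mouse. The causes were not tested.

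Replicate numbers did not pair the mice (correlation of deviations -0.044 to 0.138). With a replicate block, 4642 transcripts and 1484 genes were called, and limma passed 0 transcripts (10 without it) and 1 gene.

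The sign turned for these differences. Rbfox2 was -0.07 after size factors, -0.01 over the locus, and -0.04 without NLH2, -0.03 without Ctrl1 and -0.01 without NLH3 (-0.04 to 0.05 without 1 mouse). Grik2 was -0.06 after size factors, -0.06 without NLH3, -0.02 without NLH2 and -0.01 without Ctrl4 (-0.06 to 0.07 without 1 mouse). Rab3a was -0.02 after size factors, Tcf4 0.02 to 0.08 without NLH1, Ctrl1 or Ctrl3 (0.03), Fos -0.01 to 0.42 without 1 mouse (-0.01 without NLH1) and Fkbp5 -0.15 over the locus. Of 2124 comparisons of named differences with an alternative, 2014 kept their direction and side of the limma threshold, 67 were no longer past it, 28 came past it and 15 reversed. Only 10 transcripts and 1 gene were past the threshold to begin with. The other differences could not lose it, so the 2014 say little about how firm they are. Of 1752 such comparisons by the methods' t-test, 1491 stayed called or uncalled as before, 238 calls were lost and 23 gained.

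Depth was estimated, not given, so low values such as those of 1700065J18Rik carry counting error that is not in the SD.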
